A study of Rhodotorula toruloides with 36 samples.

Results

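The comparison described here is 88 h against 64 h in low nitrogen without acetate, in cultures of Rhodotorula toruloides strain IFO0880, the source name of every sample; all titles also carry the prefix Rt88, which the labels do not explain. It rests on 6 of the 36 messenger RNA libraries of the series, chosen by their titles: 3 biological replicates at 88 h and 3 at 64 h. The whole series crossed low and high nitrogen, no acetate and acetate at 2 g/L, and 48, 64 and 88 h. The low-nitrogen medium held ammonium sulfate at 0.1 g/L and, per the design text, yeast extract at 0.75 g/L. For the high-nitrogen medium the protocol gives 5 g/L ammonium sulfate and the design text 10 g/L, and no yeast extract is stated. Inoculum came from 3 colonies raised on glucose, and the cells of each were divided over 4 flasks. Which carbon source the sampled flasks held, and whether single flasks were sampled repeatedly, is not stated in the labels. The flasks described are fewer than the 36 libraries. If no others were used, flasks were sampled repeatedly, and 64 h and 88 h libraries can come from the same cultures. The main fit treated all libraries as independent.

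This red yeast, a basidiomycete, makes carotenoids and, when nitrogen runs out while carbon remains, stores lipid in droplets. A culture sampled late in low nitrogen has had its nitrogen supply limited for longer than one sampled earlier. In fungi, genes that act in the same pathway sometimes lie next to each other on a chromosome. The gene catalogue used here gives numbers, exons and positions in assembly version 4 of the strain, and no table used here pairs these numbers with names or functions. Genes are therefore given by catalogue number and position, and no role is assigned to any of them.

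The 88 h libraries held between 18389161 and 63174795 counts and the 64 h libraries between 20983021 and 31602693. Levels are given as CPM, counts scaled to a common library size after TMM normalization, a scaling that sets aside the most extreme genes. A level of 3 counts was worth between 0.0533 and 0.182 CPM. Replicates of the same time correlated across genes in log2 CPM at a Pearson's r between 0.992 and 0.996. Replicate 1 at 64 h stood apart: its chi-square per degree of freedom was 40.4 and 43.0 against the other replicates, while these gave 11.1 with each other. At 88 h the pairs gave 16.4, 24.7 and 43.7, the last between replicates 2 and 3. This measure grows with depth, and replicate 2 was the deepest library. By Pearson's r replicates 2 and 3 were as close as replicates 1 and 3 (0.994 for each pair). In high nitrogen without acetate, which is compared further on, replicate 2 stood apart at 88 h (154 and 87.3, against 14.4 for the other pair) and at 64 h (103 and 117, against 19.2). The labels call the replicates biological but do not tie them to separate colonies, so p-values measure the spread between libraries. That spread was estimated in 1 model of all 36 libraries, not from the 6 compared alone. In bulk RNA, fewer cells in a given state and less RNA per cell cannot be told apart.

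Most genes changed between 64 and 88 h, most of them by a small amount. Of 8314 genes tested, 4983 differed (59.9%) by the quasi-likelihood test of edgeR with an adjusted p (Benjamini-Hochberg) below 0.05. At 88 h 2339 were higher (28.1%) and 2644 lower (31.8%). Changes below 2-fold made up 1924 of the higher and 2055 of the lower genes. A change of 2-fold or more was found for 415 higher genes (4.99%) and 589 lower genes (7.08%). Changes of at least 4-fold were found for 20 higher and 44 lower genes, and of at least 8-fold for 4 higher and 8 lower genes. The 4 genes that rose at least 8-fold lie within 13.6 kb of each other. With library totals alone as the scaling, 499 genes rose 2-fold or more and 470 fell as much, so which direction held more of the 2-fold changes depends on the scaling. Without replicate 1 at 64 h, these counts were 443 and 508. Among all genes called, more were higher with each library left out in turn (2255 to 2448 higher and 2198 to 2365 lower). The same held with library totals alone (2672 and 2266) and with only the groups compared (2736 and 2571). With DESeq2 (2358 and 2689) and the other alternatives tried, more were lower, as in the main fit. Which direction held more of the called genes was therefore not settled.

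**Figure D1:**
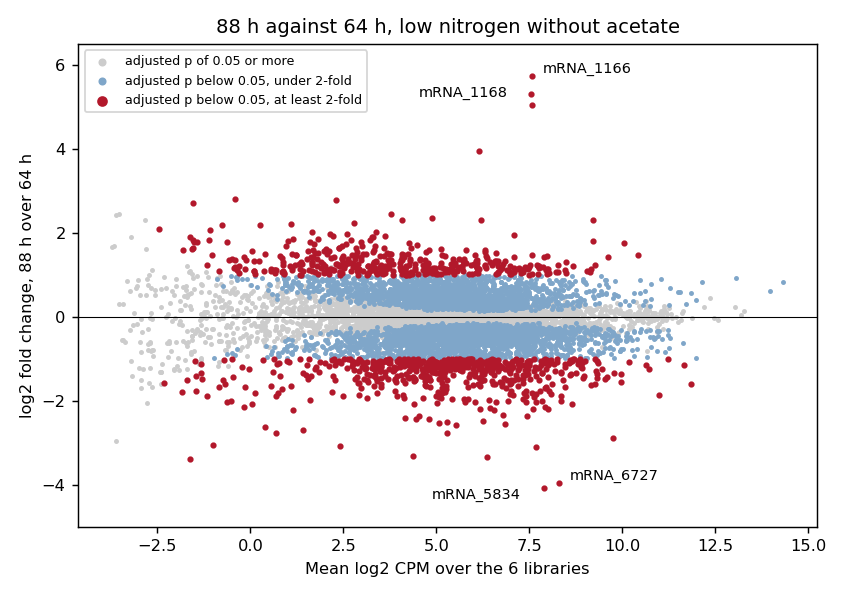
Each point is 1 of 8314 genes; the horizontal axis is its mean log2 CPM over the 6 libraries and the vertical axis its log2 fold change, 88 h over 64 h, in low nitrogen without acetate. Of the genes at least 2-fold changed, drawn in red, 4 rose and 8 fell by 8-fold or more.

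The largest rise was that of mRNA_1166 (protein 9534, scaffold 10, 554696 to 557375, minus strand, 9 exons, coding length 1512 bp). Its level was 1241, 1900 and 1122 CPM in the 88 h libraries, against 33.5, 23.4 and 23.5 CPM in the 64 h libraries. The lowest 88 h library stood far above the highest 64 h library. The log2 fold change was 5.73 (SE 0.23, adjusted p = 7.51e-18), a 53.1-fold rise, and 5.96 without replicate 1 at 64 h, the library with the highest 64 h level. At 48 h the gene had stood at 42.5 ± 0.922 CPM (mean ± SD, n = 3), above its level at 64 h. In the other 11 groups of the series its mean lay between 7.37 and 46.5 CPM.

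The second-largest rise was that of mRNA_1168 (protein 9536, scaffold 10, 560830 to 563177, minus strand, 6 exons, coding length 1755 bp). It had 1014, 1617 and 937 CPM at 88 h, against 28.8, 29.4 and 31.1 CPM at 64 h. The groups did not overlap, and replicate 2 was the highest of the 88 h libraries, as it was for mRNA_1166. Its log2 fold change was 5.32 (SE 0.19, adjusted p = 7.15e-19), a 39.9-fold rise. Its mean in the other 11 groups lay between 23.1 and 57.7 CPM.

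The largest fall was that of mRNA_5834 (protein 14202, scaffold 5, 1048946 to 1050486, minus strand, 4 exons, coding length 1353 bp). It had 53.2, 68.3 and 53.4 CPM at 88 h, against 857, 1078 and 1011 CPM at 64 h. No 88 h library came near any 64 h library. The log2 fold change was -4.07 (SE 0.19, adjusted p = 3.87e-16), a level 16.8-fold lower at 88 h. In time order its mean was 127 ± 13.1 CPM at 48 h, 982 ± 113 CPM at 64 h and 58.3 ± 8.64 CPM at 88 h (SD, n = 3 each), so the 64 h level was the highest of the 3 and also of all 12 groups.

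The second-largest fall was that of mRNA_6727 (protein 15095, scaffold 7, 3524 to 4996, minus strand, 6 exons, coding length 636 bp), which lies near the start of its scaffold. It had 79.0, 90.4 and 71.0 CPM at 88 h, against 1088, 1399 and 1280 CPM at 64 h, and the groups did not overlap. The log2 fold change was -3.97 (SE 0.20, adjusted p = 3.16e-15), a level 15.7-fold lower at 88 h. It followed the same course as mRNA_5834, with means of 196 ± 21.2 CPM at 48 h, 1256 ± 157 CPM at 64 h and 80.1 ± 9.75 CPM at 88 h. The preceding interval shares the 64 h libraries with this comparison, so high values there enter both changes. On its own, 64 h against 48 h gave log2 fold changes of 2.95 for mRNA_5834 (adjusted p = 1.40e-13) and 2.68 for mRNA_6727 (adjusted p = 2.23e-12).

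**Figure D2:**
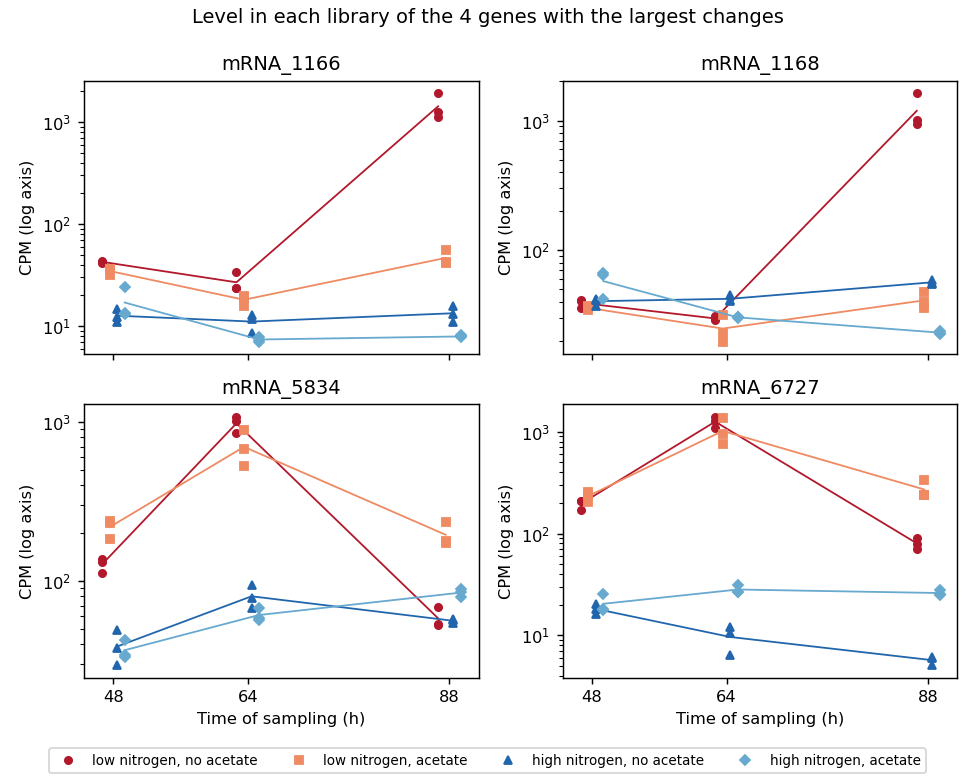
CPM on a log axis in each library against the time of sampling in hours, for the genes with the 2 largest rises and the 2 largest falls; points are single libraries, lines join the means of 3, and colours mark the 4 media. The upper genes reach at least 937 CPM at 88 h in low nitrogen without acetate and at most 66.5 CPM elsewhere, and the means of the lower genes are highest at 64 h in both low-nitrogen media.

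The strongest rises belonged to neighbouring genes. A run of 6 adjacent catalogue genes on scaffold 10, from 552545 to 566148 (13.6 kb), was at least 2-fold higher at 88 h in every member. The summed level of the 6 genes was 3526, 5518 and 3213 CPM at 88 h, against 147, 134 and 137 CPM at 64 h, a 29.3-fold ratio of the means. Each 88 h library was above each 64 h library, and replicate 2, the deepest library, was the highest. The 6 genes had their highest mean of all 12 groups at 88 h in low nitrogen without acetate, where the run was chosen for its rise. This rank was not particular to the run. It was shared by nearby genes that start at 540900, 547670, 548999 and 571334, and by the 5 genes of the scaffold 5 run described below. Among the other 11 groups the mean sum lay between 105 ± 1.59 CPM (88 h, high nitrogen and acetate) and 194 ± 11.8 CPM (48 h, high nitrogen and acetate; SD, n = 3).

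The members of this run did not rise to the same extent. From the left end, the first gene, at 552545 to 553069 on the plus strand, has a coding length of 183 bp and few counts, 110 over the 3 libraries at 88 h and 20 over those at 64 h. Its level was 1.08 ± 0.287 CPM at 88 h, against 0.304 ± 0.0614 CPM at 64 h, and its log2 fold change 1.79 (SE 0.48, adjusted p = 0.00193). The second, at 553070 to 554655 on the plus strand, had 254, 383 and 216 CPM at 88 h, against 16.4, 20.1 and 18.4 CPM at 64 h (log2 fold change 3.96, SE 0.16). The third is mRNA_1166. The fourth, at 557548 to 560720 on the minus strand, had 72.4, 85.6 and 79.9 CPM at 88 h, against 33.4, 29.0 and 29.2 CPM at 64 h. Its log2 fold change of 1.38 (SE 0.08) was well below those of the genes on either side of it, and its 48 h mean was 55.4 ± 1.40 CPM. The fifth is mRNA_1168. The last is mRNA_1169 (protein 9537, 563221 to 566148, plus strand), with 944, 1531 and 858 CPM at 88 h, against 34.3, 31.9 and 34.8 CPM at 64 h (log2 fold change 5.04, SE 0.19). In 4 of these 6 genes the rise was over 8-fold, and the groups of libraries did not overlap in any of the 6.

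Genes beside the run changed much less. Of the 4 catalogue genes on either side, 8 in all, 5 passed the test, near the 59.9% of all genes, 0 changed 2-fold, and the log2 fold changes lay between -0.19 and 0.85. A run ends where the next gene is not called at least 2-fold higher. The nearest gene on either side therefore could not count as 2-fold higher. The gaps between the annotated genes of the run are 0, 40, 172, 109 and 43 bp, so the genes are closely packed without overlapping. mRNA_1168 and mRNA_1169 are divergent, with 43 bp between their starts. The strand setting of the counting is not stated in the sources used here. Without replicate 1 at 64 h the same run was found, with log2 fold changes between 1.49 and 5.96.

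**Figure D3:**
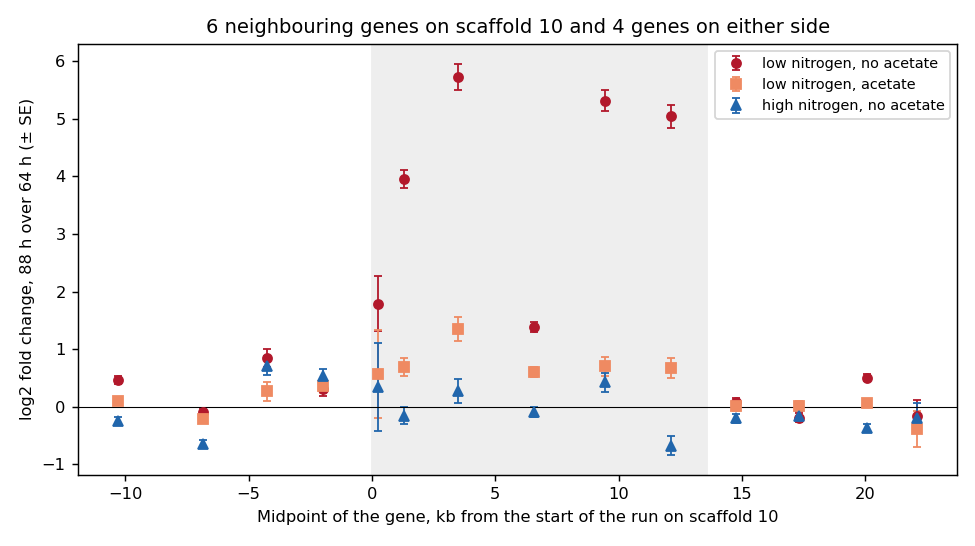
log2 fold change with SE, 88 h over 64 h, against the position of the gene's midpoint in kb from the start of the run on scaffold 10, for the 6 genes of the run (grey band) and 4 genes on either side, in 3 media. Only the red points, low nitrogen without acetate, reach above 2 log2 units, in 4 genes of the band.

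Runs were counted where 4 or more neighbours moved 2-fold or more the same way, and 3 more were found. On scaffold 5, from 1348034 to 1354894, 5 genes were higher at 88 h by log2 fold changes between 1.09 and 2.77. They also rose in high nitrogen without acetate, by 0.61 to 0.91, with all 5 called, beside 30.8% of all genes. In low nitrogen with acetate they rose by 0.11 to 0.68, with 2 called, beside 22.3% of all genes. All 5 lie on the minus strand, with 2 to 3 exons and coding lengths between 981 and 1125 bp. The one that rose most, at 1352279 to 1353458, had 14.5, 10.3 and 13.4 CPM at 88 h, against 1.62, 2.10 and 1.83 CPM at 64 h. Of these genes 2 overlap each other on 1 strand, and whether the 5 are similar in sequence was not analysed here, so their single counts are uncertain. On scaffold 16, from 325654 to 336059, 4 genes were lower at 88 h by log2 fold changes between -2.55 and -1.36. In low nitrogen with acetate they changed by -1.52 to -0.68, with all 4 called, beside 28.1% of all genes lower there. In high nitrogen their changes lay between -1.14 and 1.13. On scaffold 9, from 52210 to 59651, 4 genes were lower by between -1.89 and -1.12. With acetate these changed by between -1.24 and 2.06, and in high nitrogen by between -0.19 and 1.09. This last run was not found without replicate 1 at 64 h, where 1 member fell by 0.98 on the log2 scale. The runs on scaffolds 5 and 16 were found again, and 3 further runs of 4 rising genes appeared, on scaffolds 8, 9 and 14. With 3 adjacent genes as the minimum there were 6 rising runs of 23 genes in all and 11 falling runs of 35 genes.

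The 10 most abundant genes of each library took 10.2%, 9.71% and 10.6% of its counts at 88 h, against 7.64%, 7.07% and 7.24% at 64 h. The 100 most abundant took 28.8%, 28.2% and 28.7% at 88 h, against 25.4%, 26.1% and 26.2% at 64 h. Every 88 h library was above every 64 h library in both measures (two-sided exact permutation test, p = 0.1 for each, the minimum for 3 against 3). With acetate the 10 most abundant took 10.3% ± 0.377 at 88 h and 7.89% ± 0.127 at 64 h (SD, n = 3 each), while the 100 most abundant took 28.0% at both times. In high nitrogen without acetate the share of the top 10 went the other way, with 3.92% ± 0.0887 at 88 h and 4.77% ± 0.241 at 64 h.

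Of the 10 genes with the highest mean CPM over the 6 libraries, 3 were higher at 88 h, 0 were lower and 7 did not pass the test, beside 28.1% higher and 31.8% lower among all genes. The most abundant, singled out after its values were seen, was mRNA_971 (protein 9339, scaffold 10, 104337 to 107412, minus strand, 9 exons, coding length 2328 bp). It took 2.52%, 2.34% and 2.66% of all counts at 88 h, against 1.51%, 1.25% and 1.22% at 64 h. Every 88 h library was above every 64 h library. Its log2 fold change was 0.84 (SE 0.21, adjusted p = 0.00133), and 0.98 without replicate 1 at 64 h. At 48 h its share had been 1.22%, 1.28% and 1.32%.

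The next question was which of these late changes differed when acetate was present. In low nitrogen with acetate 4185 genes changed between 64 and 88 h (50.3%), 1850 higher (22.3%) and 2335 lower (28.1%), with 141 up 2-fold or more (1.7%) and 371 down 2-fold or more (4.46%). The difference of the changes, without minus with acetate, was called for 2054 genes (24.7%), of which 1028 were positive (12.4%) and 1026 negative (12.3%). It was at least 2-fold for 254 positive (3.06%) and 206 negative genes (2.48%). Scaling by totals alone moved the median difference of all genes by -0.17 log2 units and gave 586 positive and 1977 negative genes, so the balance of directions depends on the scaling. Without replicate 1 at 64 h without acetate, 861 were positive and 1161 negative. The shallowest library of the series, replicate 1 at 64 h with acetate, left out gave 810 and 983.

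The scaffold 10 run carried the largest positive differences. mRNA_1168 had 47.2, 40.0 and 36.0 CPM at 88 h with acetate, against 19.7, 31.8 and 23.2 CPM at 64 h with acetate. Its change there was 0.70 on the log2 scale, so the change without acetate was larger by 4.62 log2 units (SE 0.24, adjusted p = 3.14e-14). For mRNA_1166, 55.2, 42.8 and 41.4 CPM at 88 h with acetate stood against 15.9, 18.7 and 19.6 CPM at 64 h with acetate. Its change with acetate was 1.35, and the difference was 4.38 (SE 0.29, adjusted p = 7.47e-12). In 5 of the 6 genes of the run the difference was called and positive, beside 12.4% of all genes. The exception was the short gene at the left end (difference 1.23, adjusted p = 0.370). The run was chosen by its rise without acetate in the same libraries, so positive differences were favoured in advance. Summed over the run, the libraries with acetate reached 186 ± 23.1 CPM at 88 h and 106 ± 13.5 CPM at 64 h, a 1.77-fold ratio of the means. The run thus rose with acetate too, but less. Its 6 genes rose there by log2 fold changes between 0.57 and 1.35, and 5 were called, beside 22.3% of all genes.

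Among genes meeting the naming criteria, the lowest differences belonged to a gene with few counts and to a gene at a low level. mRNA_7939 (protein 16307, scaffold 9, 58388 to 59651, plus strand, 6 exons) is a member of the falling run on that scaffold. Without acetate it had 2.18, 3.29 and 3.25 CPM at 88 h, against 8.6, 13.3 and 10.9 CPM at 64 h. With acetate it was barely detected, with 22 counts over the 3 libraries at 88 h and 4 counts over the 3 libraries at 64 h. The difference of changes, -3.94 (SE 0.73, adjusted p = 0.000190), rests on those few counts. mRNA_2815 (protein 11183, scaffold 15, 286739 to 289014, plus strand, 4 exons) had 3.76, 3.61 and 5.62 CPM at 88 h, against 10.0, 14.0 and 14.3 CPM at 64 h, without acetate. With acetate it had 5.13, 6.18 and 5.06 CPM at 88 h, against 3.42, 2.92 and 3.89 CPM at 64 h. The gene fell without acetate (log2 fold change -1.56, adjusted p = 4.44e-09) and rose with it (0.69, adjusted p = 0.00304), a difference of -2.25 (SE 0.25, adjusted p = 7.19e-08).

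Both genes with the largest falls also fell with acetate, but less. They were chosen as the largest falls without acetate, so a smaller fall in another medium was favoured in advance. mRNA_5834 changed by -1.84 and mRNA_6727 by -1.91 on the log2 scale with acetate. The differences were -2.23 (SE 0.24, adjusted p = 5.73e-08) and -2.06 (SE 0.26, adjusted p = 7.48e-07). With acetate mRNA_5834 averaged 195 ± 33.2 CPM at 88 h and 698 ± 181 CPM at 64 h, and mRNA_6727 271 ± 54.2 CPM at 88 h and 1018 ± 301 CPM at 64 h (SD, n = 3 each).

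The same interval in high nitrogen without acetate gave the third arm. There 5060 genes changed (60.9%), 2563 higher (30.8%) and 2497 lower (30.0%), with 439 up 2-fold or more (5.28%) and 219 down 2-fold or more (2.63%). The difference of the changes, low minus high nitrogen, was called for 3602 genes (43.3%), of which 1670 were positive (20.1%) and 1932 negative (23.2%). It was at least 2-fold for 246 positive (2.96%) and 624 negative genes (7.51%). Scaling by totals alone moved the median by -0.14 log2 units and gave 1124 positive and 2589 negative genes, with 151 and 861 at least 2-fold. The 2-fold counts were 241 and 687 without replicate 1 at 64 h in low nitrogen. In high nitrogen they were 260 and 561 without replicate 2 at 88 h and 238 and 639 without replicate 2 at 64 h.

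The run on scaffold 10 did not rise as a whole in high nitrogen, where its sum had means of 179 ± 6.63 CPM at 88 h and 193 ± 22.2 CPM at 64 h. Its members moved in both directions there. mRNA_1168 had 56.3, 54.7 and 58.7 CPM at 88 h in high nitrogen, against 40.4, 44.9 and 41.4 CPM at 64 h, and rose by 0.42 on the log2 scale (adjusted p = 0.0237). mRNA_1169 had 47.3, 35.7 and 45.7 CPM at 88 h in high nitrogen, against 62.0, 84.1 and 59.6 CPM at 64 h in high nitrogen. It fell there by 0.68 on the log2 scale (adjusted p = 0.00103), and the difference between the media was 5.72 (SE 0.25, adjusted p = 2.77e-16), the largest that met the naming criteria. mRNA_1166 had 13.2, 11.0 and 15.8 CPM at 88 h in high nitrogen, against 8.56, 12.8 and 11.8 CPM at 64 h, and these groups overlapped. Its difference between the media was 5.47 (SE 0.30, adjusted p = 2.92e-14). The run was chosen by its rise in low nitrogen, so positive differences were favoured in advance here too.

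Among genes meeting the same criteria, the lowest differences between the media were those of mRNA_7919 and mRNA_5834. mRNA_7919 (protein 16287, scaffold 9, 21932 to 23726, minus strand, 7 exons, coding length 522 bp) had 27.2, 29.9 and 20.7 CPM at 88 h in low nitrogen, against 221, 301 and 267 CPM at 64 h. In high nitrogen it had 46.4, 54.6 and 43.0 CPM at 88 h, against 34.7, 32.1 and 33.7 CPM at 64 h. It fell in low nitrogen by 3.34 on the log2 scale and rose in high nitrogen by 0.52 (adjusted p = 0.00569), a difference of -3.86 (SE 0.23, adjusted p = 1.87e-13). Its mean at 88 h in low nitrogen, 25.9 ± 4.74 CPM, was the lowest of its 12 group means. mRNA_5834 changed by -0.51 in high nitrogen, where its 64 h mean was 80.2 ± 13.9 CPM, and its difference was -3.56 (SE 0.25, adjusted p = 1.04e-11).

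**Figure D4:**
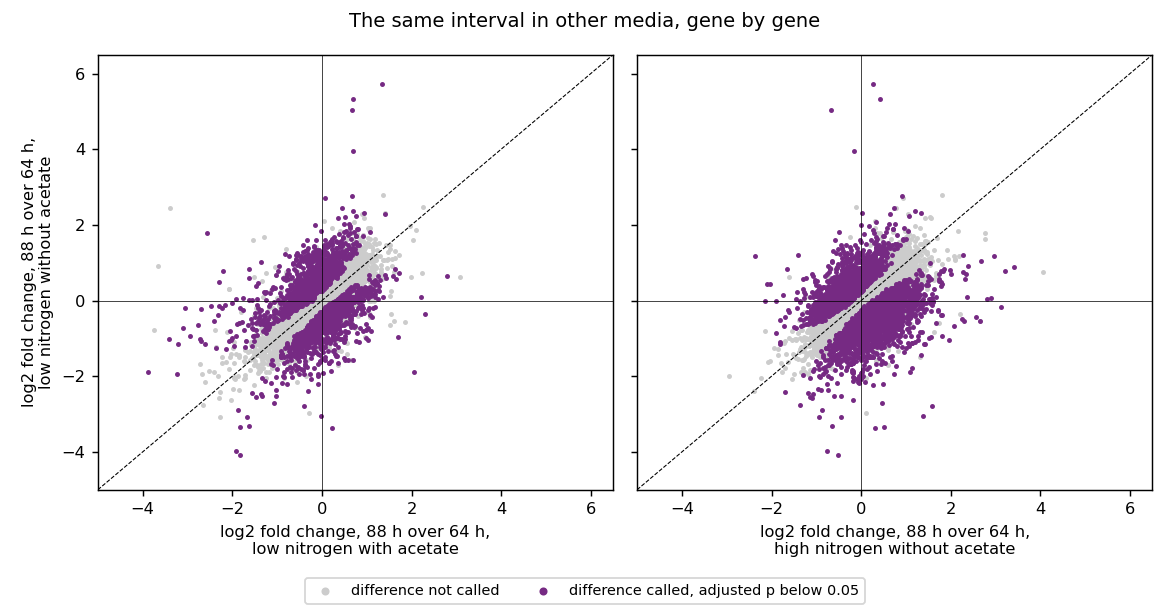
log2 fold change, 88 h over 64 h, in low nitrogen without acetate (vertical) against that in low nitrogen with acetate (left) and in high nitrogen without acetate (right), 1 point per gene; purple points are the 2054 and 3602 genes whose difference of changes was called, and the dashed line marks equal changes. The 4 points at the top of both panels are genes of the scaffold 10 run.

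Across the 8314 genes, changes in low nitrogen without acetate correlated with those with acetate at Pearson's r of 0.597 and with those in high nitrogen at 0.433. The means in these comparisons share no library, but the spread behind the calls was estimated in 1 model. Genes are not independent replicates, and flasks of the series shared their starting pellets. Of the 371 genes at least 2-fold lower with acetate, 301 were also lower without it and 8 higher, and the median log2 change without acetate was -1.04. Those at least 2-fold lower in both numbered 195, which is 52.6% of the acetate list and 33.1% of the list without acetate. Of the 141 genes at least 2-fold higher with acetate, 90 were also higher without it and 5 lower, with a median of 0.66. Those at least 2-fold higher in both numbered 45, or 31.9% and 10.8% of the lists. From high nitrogen, 84 of 219 genes at least 2-fold lower were also at least 2-fold lower in low nitrogen (38.4% and 14.3%), and 97 of 439 at least 2-fold higher were also at least 2-fold higher (22.1% and 23.4%). Of all genes tested, 31.8% were lower and 28.1% higher in low nitrogen without acetate, 7.08% and 4.99% by at least 2-fold. The lists with acetate held 4.46% (lower) and 1.7% (higher) of all genes, and those from high nitrogen 2.63% and 5.28%. The median log2 change of all genes tested was -0.02.

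Genes that had responded to nitrogen or acetate at 48 h were followed through the later interval. The 48 h libraries do not enter the means compared at 88 h and 64 h. They do enter the shared estimate of the spread on which the calls rest. Of all genes tested 28.1% rose and 31.8% fell, with a median log2 change of -0.02. Of the 550 genes (6.62% of those tested) at least 2-fold higher in low than in high nitrogen at 48 h, 19.8% rose and 42.2% fell (median -0.26). Of the 613 genes (7.37%) at least 2-fold lower in low nitrogen at 48 h, 18.8% rose and 30.3% fell (median -0.15), so the share that fell was slightly below that of all genes. Of the 326 genes (3.92%) at least 2-fold raised by acetate at 48 h in low nitrogen, 16.3% rose and 35.0% fell (median -0.27). Of the 549 genes (6.6%) lowered 2-fold or more by acetate, 26.0% rose and 38.4% fell (median -0.16). In these 4 lists 17.1%, 10.4%, 16.6% and 17.7% of the genes were at least 2-fold lower at 88 h, against 7.08% of all genes. At least 2-fold higher were 3.27%, 5.71%, 6.75% and 8.56%, against 4.99% of all genes. Without replicate 1 at 64 h all 4 medians were again below that of all genes.

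By gene structure, the median log2 change was 0.03 for 368 tested genes of 1 exon, 0.08 for 2989 genes of 2 to 4 exons, -0.05 for 3655 of 5 to 9 exons, -0.14 for 1235 of 10 to 19 exons and -0.24 for 67 of 20 or more exons. Of the last 67 genes 6 rose (8.96%) and 36 fell (53.7%), against 28.1% and 31.8% of all genes. By coding length, the lowest medians were -0.16 for 758 genes of 3000 bp or more and -0.13 for 203 genes under 300 bp. Without replicate 1 at 64 h they were -0.09 and -0.12, so their order depends on that library. Of the longest genes 21.9% rose and 43.3% fell, and of the shortest 19.7% rose and 28.6% fell. Of the genes of 1 exon 10.3% were at least 2-fold higher and 8.70% lower, against 4.99% and 7.08% of all genes. The medians over the exon classes had the same order from 2 to 4 exons upward with acetate (0.06, -0.04, -0.11 and -0.17) and in high nitrogen (0.13, -0.01, -0.14 and -0.25).

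By abundance, genes with a mean of 1 to 10 CPM over the 6 libraries had a median of 0.13, and of these 1201 genes 31.7% rose and 21.0% fell, against 28.1% and 31.8% of all genes. Relative to all genes this median was reversed, at -0.067, when genes had to reach 10 CPM in 3 libraries. Of 1978 genes at 100 to 1000 CPM, with a median of -0.14, 23.3% rose and 41.0% fell. Of the 314 tested genes under 1 CPM, 12.1% rose and 8.92% fell. Of 301 tested genes that start within 20 kb of a scaffold end as far as the catalogue shows it, 19.9% rose and 37.9% fell. Of these 301, 0.664% were at least 2-fold higher, against 4.99% of all genes, and 8.64% at least 2-fold lower, against 7.08%. Genes overlapping another on the opposite strand (27.9% rose and 32.0% fell of 1188) and divergent neighbours with starts within 500 bp (29.7% rose and 31.5% fell of 3476) were close to all genes. Over the 18 scaffolds with at least 20 tested genes the median ranged from -0.11 to 0.11.

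**Figure D5:**
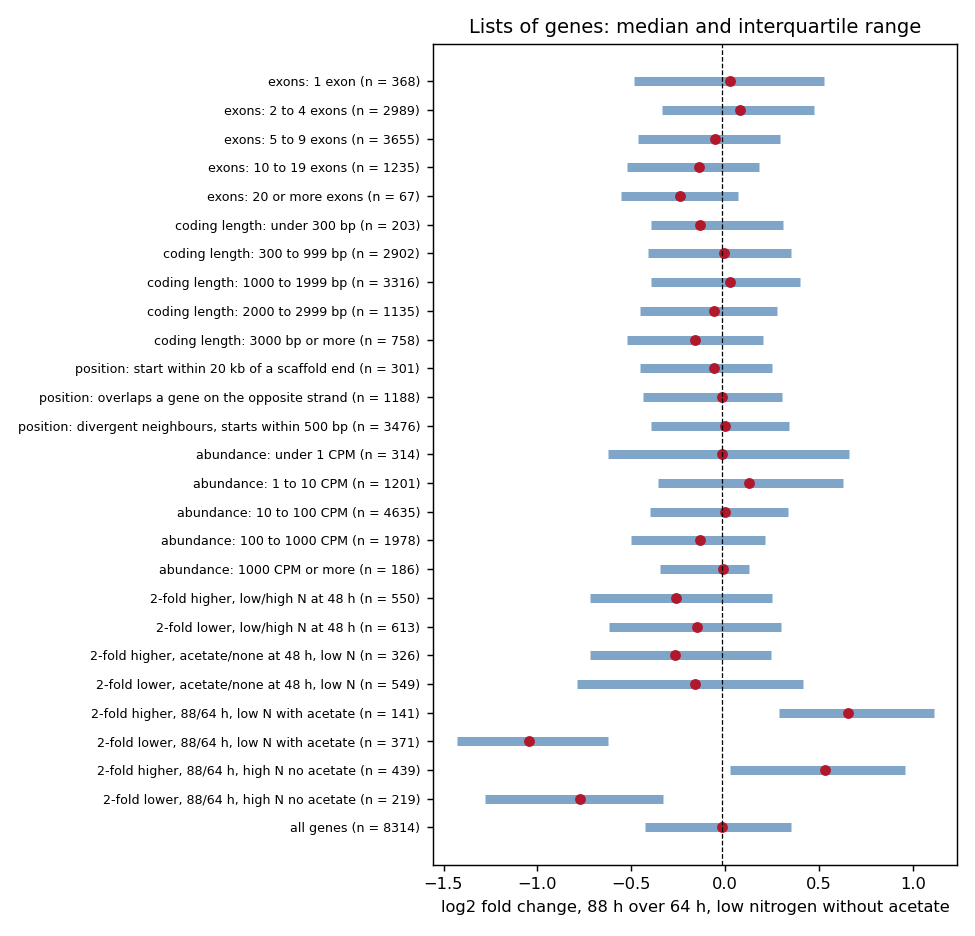
Median (point) and interquartile range (bar) of the log2 fold change, 88 h over 64 h in low nitrogen without acetate, for each list of genes with its number of tested members; the dashed line is the median of all 8314 genes. The lists drawn from the same interval in other media lie farthest from it, at medians of 0.66, -1.04, 0.53 and -0.77.

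Set beside the preceding interval, the late one had a like number of changed genes. From 48 to 64 h 5274 genes changed (63.4%), 2507 higher (30.2%) and 2767 lower (33.3%), with 603 up 2-fold or more (7.25%) and 583 down 2-fold or more (7.01%). The SD of the log2 fold changes across genes was 0.66 for 88 h against 64 h and 0.75 for 64 h against 48 h. The intervals are 24 h and 16 h long and share the 64 h libraries, so no overlap between them is given.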

How the data were processed

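Stranded messenger RNA libraries (Watchmaker) were read from both ends on the NovaSeq X Plus instrument, per the labels' protocols. The deposited values are raw counts per catalogue mRNA, 1 table per library. Tools named in the submitters' processing notes, with no role stated, are STAR 2.7.10a, featureCounts, Subread 2.0.4, Trimmomatic 0.39, MultiQC 1.9 and FastQC 0.11.9. Strand and multi-mapping settings are not given in the sources used here. A label calls the values scaled to library size, but they are whole numbers with totals that differ between libraries (10173719 to 63311529), so the values were used as counts.

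Analysis used R 4.3.3 and edgeR 4.0.16: filterByExpr (8314 of 8490 genes kept), TMM, and the quasi-likelihood F-test, in one model of all 36 libraries and 12 group means. Adjusted p is Benjamini-Hochberg over all genes tested within a comparison. The SE is the absolute log2 fold change divided by the square root of F, an approximation that can be too small at few counts. CPM use TMM library sizes, and log2 CPM a prior count of 2. The scripts were tested on simulated data. Tried as alternatives were RLE and library totals as scalings, other filters, a replicate block, only the groups compared, DESeq2 1.42.0 and each library left out.

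Named genes are the 2 highest and 2 lowest log2 values per comparison with adjusted p below 0.05, at least 10 CPM in the highest group and, for 88 h against 64 h, no overlap between libraries. Members of runs are given by position. The comparison, lists, rules and alternatives were chosen with earlier results of these data known. The CPM worth of 3 counts covers counting error only. The SE, taken from the quasi-likelihood F, also includes the spread between libraries.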

Additional observations from a re-analysis of the deposited data

Results flagged for a closer look

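The change from 64 to 88 h differed between media by a test of the difference itself. The named genes were chosen by their change in low nitrogen without acetate or by the difference itself. Large differences in them were therefore favoured in advance. Between low nitrogen without and with acetate the difference was called for 2054 genes (edgeR's quasi-likelihood test, adjusted p below 0.05). Among the named genes it was 4.38 log2 units for mRNA_1166 and 4.62 for mRNA_1168. It was -2.23 for mRNA_5834, -2.06 for mRNA_6727, -3.94 for mRNA_7939 and -2.25 for mRNA_2815.

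Between low and high nitrogen without acetate the difference was called for 3602 genes. It was 5.47 log2 units for mRNA_1166, 4.90 for mRNA_1168 and 5.72 for mRNA_1169. It was -3.56 for mRNA_5834, -3.20 for mRNA_6727 and -3.86 for mRNA_7919.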

How the results depend on the processing

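For the named genes all 280 values under the alternatives kept their direction and stayed past the threshold, and 250 of 255 counts stayed within 1.5 times. Within that margin, the direction that held more of the genes called at 88 h against 64 h changed. Genes called at 88 h against 64 h numbered 5047 with DESeq2, 5307 with only the groups compared and 4453 to 4757 with a library left out. The last range was 430 to 492 for at least 2-fold higher and 439 to 631 for lower genes. The adjusted p of edgeR's quasi-likelihood test was far larger with only the groups compared than in the main fit. It was then 1.36e-06 for mRNA_1166, 1.04e-06 for mRNA_1168 and 5.4e-07 for mRNA_5834 and mRNA_6727. The counts beyond 1.5 times all came from library totals alone. For the difference without minus with acetate these gave 586 positive and 1977 negative genes, with 163 and 341 at least 2-fold. For low minus high nitrogen they gave 151 positive genes at least 2-fold.

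With the replicate number as a block 4995 genes were called. Deviations of same-numbered libraries correlated at -0.12, 0.20 and -0.08, so the numbers were not taken as pairs, and not every library correlated best with its own number.

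List medians minus the median of all genes moved by over 1 SD between replicates mostly with a filter of 10 CPM in 3 libraries, which removes members: 0.11 for 1 exon, 0.085 for 2 to 4 exons, -0.20 for 20 or more, -0.19 for coding lengths under 300 bp and -0.020 for 2000 to under 3000 bp. By abundance they were -0.55 under 1 CPM, 0.043 at 10 to 100 CPM and, reversed, -0.067 at 1 to 10 CPM. They were 0.71 and 0.52 for genes higher in the same interval with acetate and in high nitrogen. Without replicate 1 at 64 h they were -0.00088 for 300 to under 1000 bp, -0.12 for 3000 bp or more, -0.050 at 1000 CPM or more and 0.51 for genes higher in high nitrogen. Runs numbered 6 rising (23 genes) and 11 falling (35 genes) with 3 adjacent genes, and 5 rising (23 genes) and 1 falling (4 genes) without replicate 1 at 64 h. The causes were not tested. Of 314 genes under 1 CPM 66 were called.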
